A study of Macaca mulatta with 7 samples.

Results

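PDCD1LG2 and CD274 encode the ligands of PD-1, an inhibitory receptor of T cells, and their RNA was followed here in sperm of rhesus macaques (Macaca mulatta). PDCD1LG2 (PD-L2) was chosen by its sense counts, which earlier results of these data showed in Maltreated libraries only, and CD274 (PD-L1) was taken with it as the other ligand of the receptor. These are 2 of the 18282 genes analysed. The study sequenced total RNA of sperm cells from 4 libraries of a group labelled Control, aged 5.72 to 5.92 years, and 3 of a group labelled Maltreated, aged 5.67 to 5.78 years. In both groups the cells were purified on PureSperm 40/80, a layered density medium on which sperm sediment away from other semen cells. The labels give no genotype and do not say how maltreatment was defined. Per the series title, the aim was to learn what stress early in life leaves behind in germline RNA. Since nothing in the labels states that each library is a separate animal, p-values measure the spread between these samples.

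PD-L1 and PD-L2 are membrane proteins of the B7 family, each with a variable-type and a constant-type immunoglobulin domain outside the cell. When they bind PD-1 on an activated T cell, the receptor recruits phosphatases that dampen signalling from the antigen receptor. PD-L1 is made by many cell types and is induced by interferon gamma, whereas PD-L2 is known mainly from dendritic cells and macrophages, where interleukin-4 also induces it. The testis is a site of restrained immune reactions, because maturing germ cells carry proteins to which the immune system has not been made tolerant.

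The libraries held 5316383 to 30715268 sense counts each, where a sense count is a read on the strand of the gene. The greatest depth was in Maltreated 1. The sperm identity of the material was clear from 10 of 10 sperm markers, which summed to 46296 to 62290 counts per 1000000 of the library (CPM) in Control and to 44703 to 102050 CPM in Maltreated libraries. Control 4 and Maltreated 3 stood apart from the others in leukocyte genes. The sense contrasts of both ligands are also given without them. So are the median log2 fold changes of the interferon and interleukin-4 genes and of the PD-L1 regulators. Other group results are not. Over all genes, edgeR's quasi-likelihood test passed 0 of 10719 genes in sense counts and 0 of 4382 in antisense counts at an adjusted p of 0.05. At an unadjusted p under 0.05 there were 191 and 110 genes, and the DESeq2 Wald test passed 3 and 13.

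PDCD1LG2 had 353 sense counts in Maltreated 1, 14 in Maltreated 2 and 67 in Maltreated 3, and 0 in each of the 4 Control libraries. Scaled to library size, this was 11.7, 2.32 and 5.77 CPM in Maltreated 1 to 3, a mean of 6.61 ± 4.76 (SD, n = 3). All 3 Maltreated libraries thus lay above all Control libraries, which is the pattern by which the gene was chosen, and no test is given for it. A count of 0 allows up to 0.318 CPM in Control 1, the deepest Control library, and 0.509 to 0.555 CPM in the other 3 (3 counts of the library). With counts pooled by group and Control set at 3 counts, the ratio of CPM, Maltreated over Control, was 79.8. No interval is given, because the 3 counts were not observed and the sense counts chose the gene. The ratio is called a bound only because 3 counts stand in for a Control count of 0. It is not a minimum for each Maltreated library, and Maltreated 1 held 353 of the 434 pooled counts. The bound fell to 40.0 without Maltreated 1 and to 51.2 without Control 1. It was 70.1 without Control 4 and Maltreated 3. Limits here and the intervals given below take in counting error alone, because reads lacking molecular identifiers may repeat a molecule.

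Absence from every Control library together with a count in every Maltreated library was not unique to this gene. Of 17813 genes with a sense count anywhere, 87 (0.488%) had it, and PDCD1LG2 had the most Maltreated counts of these. The share was read off the contrast that chose the gene, so nothing is concluded from it. CD274 lies just outside that pattern, with 1 count over the Control libraries and none in Maltreated 1.

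CD274 had 56 sense counts in Maltreated 2 and 62 in Maltreated 3, but 0 in Maltreated 1. In Control it had 1 count in Control 2 and 0 in the other 3. In CPM it stood at 9.30 in Maltreated 2, 5.34 in Maltreated 3 and 0.180 in Control 2. The groups therefore overlapped, through Maltreated 1, where the depth allowed no more than 0.0998 CPM. CD274 averaged 0.0450 ± 0.0900 CPM over the Control libraries (SD, n = 4) and 4.88 ± 4.67 CPM over the Maltreated ones (SD, n = 3). The difference of 4.84 CPM did not exceed the spread between libraries (two-sided exact permutation test over 35 splits, p = 0.286, with 0.0571 the smallest p that 4 against 3 libraries allow). It was 7.29 CPM without Maltreated 1, 2.61 without Maltreated 2 and 4.55 without Maltreated 3. Without both Control 4 and Maltreated 3 it was 4.47 CPM. CD274 had too few libraries with counts to enter the edgeR test under its filter. The ratio of pooled CPM, Maltreated over Control, was 65.1, with a counting interval of 11.5 to 2592 (95%, exact) that reflects the lone Control count.

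**Figure D1:**
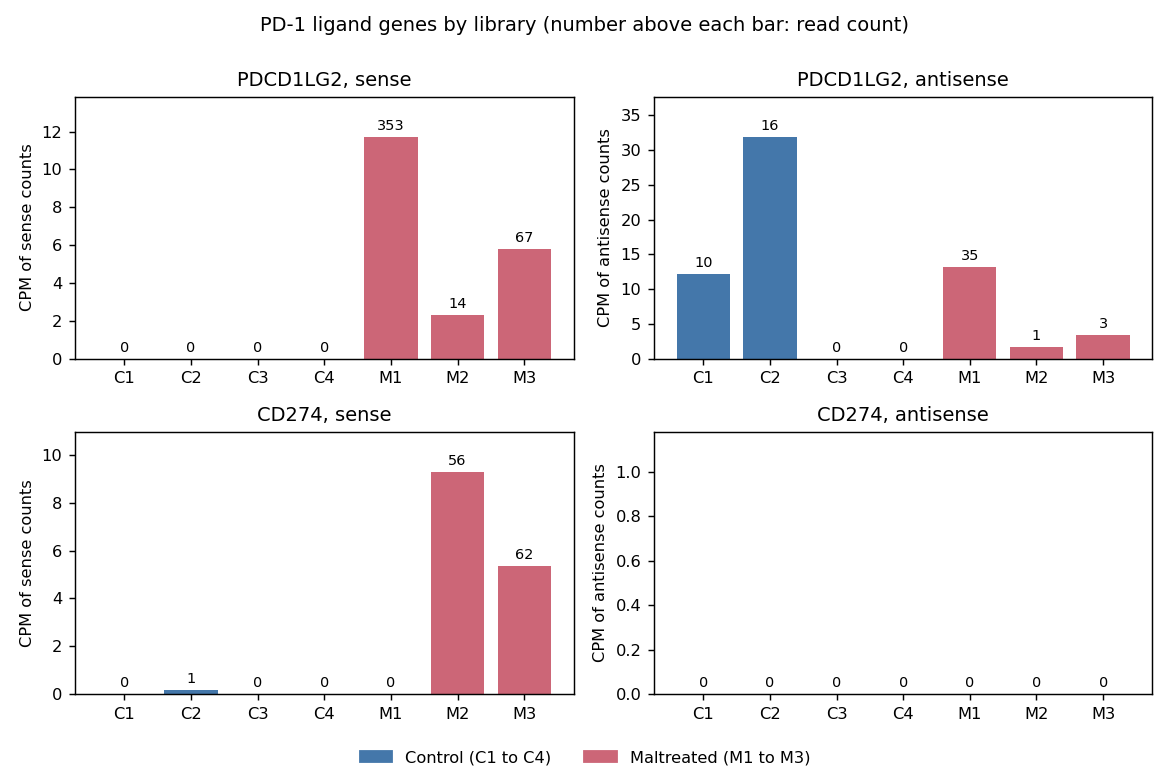
CPM (vertical axis, starting at 0) of PDCD1LG2 and CD274 in sense and antisense counts, 1 bar per library, Control in blue and Maltreated in red, with the read count above each bar; CPM are scaled to the totals of the same strand. Sense counts of PDCD1LG2 appear in all 3 Maltreated libraries and those of CD274 in Maltreated 2 and 3, antisense counts of PDCD1LG2 in both groups, and antisense counts of CD274 in none.

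The libraries with most of 1 ligand were not those with most of the other. Maltreated 1 held the highest level of PDCD1LG2 and no CD274, and Maltreated 2 held the highest level of CD274 and the lowest Maltreated level of PDCD1LG2. Per kilobase of exon, PDCD1LG2 stood at 4.87, 0.965 and 2.40 CPM in Maltreated 1 to 3, and CD274 at 0, 2.58 and 1.48. On this scale of levels, 72.2% of genes lay below PDCD1LG2 in Maltreated 1, 55.4% in Maltreated 2 and 58.1% in Maltreated 3. For CD274 it was 65.0% of genes in Maltreated 2 and 50.7% in Maltreated 3. Neither gene was thus among the abundant transcripts of sperm. Added together, the 2 ligands came to 11.7, 11.6 and 11.1 CPM in Maltreated 1 to 3 and to at most 0.180 CPM in any Control library, a sum that was formed after the values were seen and carries no test.

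Antisense counts, which the choice of the gene did not use, gave another picture of PDCD1LG2. Control 1 had 10 and Control 2 had 16, while Control 3 and Control 4 had 0. Maltreated 1 to 3 had 35, 1 and 3. Scaled to antisense totals these were 12.2 and 31.9 CPM in Control 1 and 2 and 13.1, 1.66 and 3.34 CPM in Maltreated 1 to 3. The groups overlapped, and the highest level was in Control 2. Among tested genes, 2.83% had antisense counts with all Maltreated libraries above Control and 1.53% all below. Antisense PDCD1LG2 averaged 11.03 ± 15.1 CPM over the Control libraries (SD, n = 4) and 6.04 ± 6.19 CPM over the Maltreated ones (SD, n = 3). In edgeR's quasi-likelihood test its log2 fold change, Maltreated over Control, was -0.81 ± 1.92 (SE) with an adjusted p of 0.997. The difference in mean CPM, -4.99, turned to 2.59 without Control 2. With sense and antisense counts added, the pooled ratio of PDCD1LG2, Maltreated over Control, was 10.1 in place of the bound of 79.8. In edgeR's fit of the added counts the log2 fold change was 2.84 ± 1.54 (SE). The added counts hold the sense counts that chose the gene, so no test or counting interval is given for them. CD274 had no antisense count in any library, which allows up to 1.12 CPM of antisense counts in Maltreated 1, the deepest library, and up to 5.99 CPM in Control 2.

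Where the counts lay within the genes also differed. Both genes are on the plus strand of chromosome 9 as the deposited files number it, for a genome build that the sources used here do not name. CD274 runs from 32238563 to 32258489 and PDCD1LG2 from 32296556 to 32355439, with 38066 bases between them. Each has 7 annotated exons, with 3601 exon bases in CD274 and 2409 in PDCD1LG2. In genes of the B7 family the signal peptide and the immunoglobulin domains are typically encoded by exons of their own, and the last exon holds much of the 3′ untranslated region.

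In PDCD1LG2 the sense counts gathered on exons 4, 5 and 6, which lie between 32334878 and 32347113. Maltreated 1 had 179 counts on exon 4, 114 on exon 5 and 52 on exon 6, against 1, 1, 2 and 4 on exons 1, 2, 3 and 7. Maltreated 3 had 6 counts on exon 3 and 31, 23 and 7 on exons 4 to 6, with 0 on the other 3 exons. In Maltreated 2 all counts were on exons 5 and 6, with 7 on each. Exons 4 to 6 make up 18.8% of the exon bases but held 97.7% of the counts in Maltreated 1 (95% interval 95.6 to 99.02, Clopper-Pearson). The share was 91.04% in Maltreated 3 (81.5 to 96.6) and 100% of 14 counts in Maltreated 2 (76.8 to 100). All 3 libraries had counts on exons 5 and 6. A read that overlaps several exons is counted on each of them, whereas the intervals of exon shares take each count as a separate read. The number of distinct reads is at least the largest exon count, 179, 7 and 31 in Maltreated 1 to 3. With this largest exon count as the count of every gene, the bound of the pooled fold was 47.1.

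Exon 7 of PDCD1LG2 is the longest, with 1323 of the 2409 bases (54.9%), and held 4 of 353 counts in Maltreated 1 (1.13%, 95% interval 0.310 to 2.88) and none in Maltreated 2 and 3. A thin last exon was common in these libraries. Among 3184 genes of at least 3 exons with at least 50 counts in Maltreated 1 and a last exon of at least 50% of their exon bases, the median share of counts on the last exon was 6.57%. Of these genes 21.1% had a share as low as that of PDCD1LG2. In Maltreated 3 the median was 7.58% over 2677 such genes, and 7.73% of them had no count on the last exon, as PDCD1LG2 did.

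CD274 was covered differently in the 2 libraries that held it. In Maltreated 3 all 7 exons carried counts, in order 8, 8, 16, 13, 4, 4 and 9. They covered 875 of 3601 bases (24.3%), and the last exon, 75.3% of the exon bases, held 14.5% of the counts (95% interval 6.86 to 25.8). In Maltreated 2 all 56 counts were on the last exon and covered 98 of its 2712 bases (3.61%). No other exon of CD274 had a count in that library. Such dense short patches were more frequent in Maltreated 2 than in the other Maltreated libraries. Of 376 exons of at least 1000 bases with at least 50 counts in Maltreated 2, 38 (10.1%) had under 5% of their bases covered, against 0.279% in Maltreated 1 and 0.390% in Maltreated 3. The share was 23.8% in Control 4 and 3.44 to 7.01% in the other Control libraries. The lone Control count of CD274 lay on exon 3 and covered 35 bases.

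**Figure D2:**
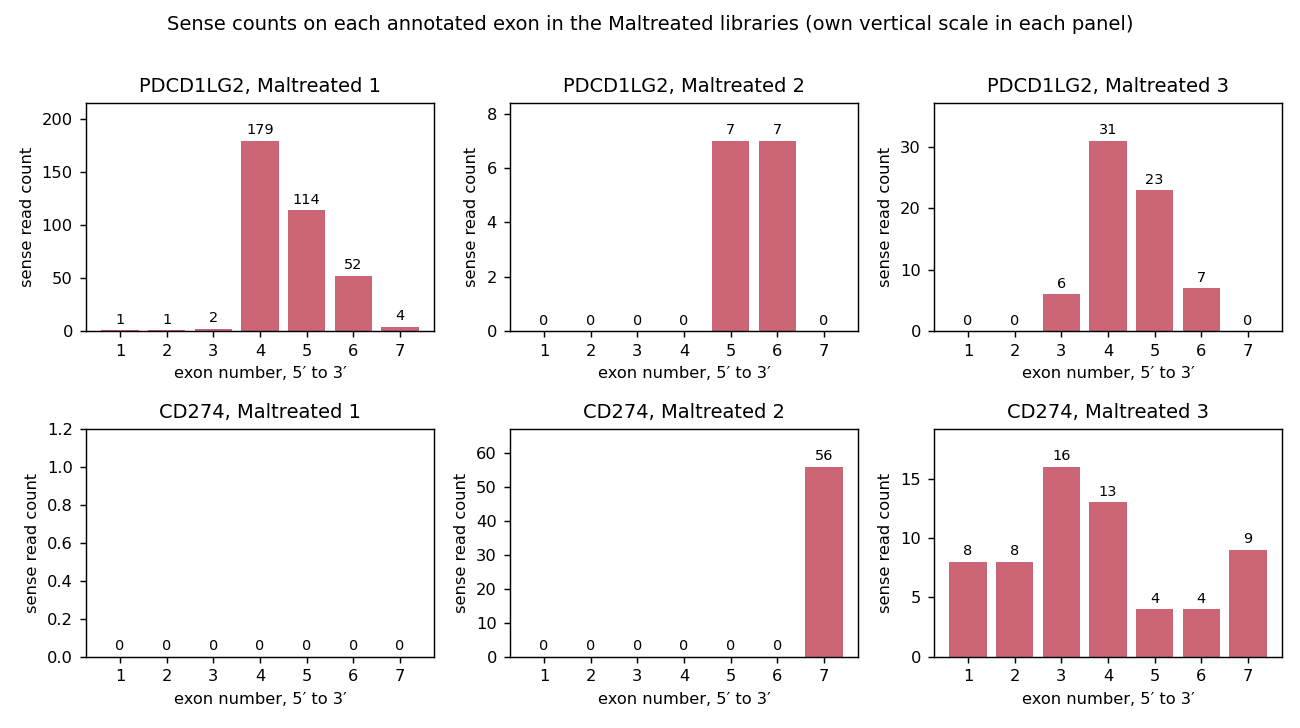
Sense read counts (vertical axis, own scale in each panel) on each of the 7 annotated exons (horizontal axis, numbered from the 5′ end) of PDCD1LG2 and CD274 in the 3 Maltreated libraries. Counts of PDCD1LG2 centre on exons 4 to 6, while CD274 is empty in Maltreated 1, confined to exon 7 in Maltreated 2 and spread over all 7 exons in Maltreated 3.

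A few counts could be listed with a large covered fraction. In the deposited table PDCD1LG2 was covered to 100% in Maltreated 1, 7.14% in Maltreated 2 and 22.8% in Maltreated 3. In Maltreated 1 exons 1, 2, 3 and 7 were each listed as covered over their whole length although they had 8 counts together over 1957 bases. The 4 counts on exon 7 stood for 331 covered bases each, and 1 count covered all 261 bases of exon 1. This is a feature of the files as a whole. Among exons of at least 1000 bases with exactly 1 count, 23.5% were listed as fully covered in Maltreated 1, and 23.5 to 33.6% over the 7 libraries. The cause was not tested, and the covered fraction is not used as a measure of depth here.

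Antisense counts of PDCD1LG2 centred on exon 3, which held 37 of all 65 (56.9%). Exon 3 carried 10, 8, 15, 1 and 3 antisense counts in Control 1, Control 2 and Maltreated 1 to 3, which are all the libraries that had any. Control 2 and Maltreated 1 also had the same number on each of exons 4 to 7, 2 and 5. A read over several exons is counted on each of them, so the 65 counts may hold fewer distinct reads. No interval is given for the share on exon 3 for that reason. The sense and the antisense counts of this gene thus peaked on different exons, since sense counts on exon 3 were 2 and 6 in Maltreated 1 and 3 and 0 in the others. The sources used here do not say how the library preparation marked the strand.

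Markers of other cells that a semen sample can hold were read beside these levels, and in bulk RNA fewer cells of a type and less RNA per cell cannot be told apart. Of 15 markers of myeloid and dendritic cells, 14 had a count in some library and the dendritic cell marker CD1C had none. Their sum was 36.5 to 746 CPM in Control and 21.3 to 1015 CPM in Maltreated libraries. Maltreated 1, with the highest level of PDCD1LG2, had the lowest sum of all 7 libraries, 21.3 CPM. There the macrophage gene CD68 stood at 0.233 CPM and CD83, a marker of mature dendritic cells, at 10.2 CPM. Control 4, with 746 CPM, had no count of either ligand. Maltreated 3, with both ligands, had the highest sum, and CD68 stood there at 359 CPM. In Maltreated 2, with the highest level of CD274, the sum was 134 CPM. Most of it came from CD83 (43.8 CPM), ITGAM (30.9 CPM) and CLEC10A (41.8 CPM), a lectin of dendritic cells and macrophages. CD14 stood there at 7.97 CPM and every other marker of the list at 2.99 CPM or less. CD83 stood at 11.8 to 41.7 CPM in Control. CLEC10A had 46 counts in Maltreated 1 (1.53 CPM), 2 in Maltreated 3, 1 in Control 3 and 0 in the other 3 Control libraries. Lymphocyte markers, of which all 10 had a count somewhere, summed to 8.79 to 118 CPM in Control and 4.83 to 12.2 CPM in Maltreated libraries. Of that sum in Control 4, 111 CPM came from LCK, a kinase of T cells. CD79A, a chain of the B cell receptor, had 66, 30 and 10 counts in Maltreated 1 to 3 and 0 in every Control library, as PDCD1LG2 did. Epithelial and accessory gland markers summed to 16.3 to 294 CPM and 6.65 to 27.8 CPM, in that order of groups. Of 8 markers of somatic cells of the testis, 7 had a count and INSL3, a marker of Leydig cells, had none. Their sum was 8.05 to 99.1 CPM in Control and 20.4 to 262 CPM in Maltreated libraries. VIM gave 245 of the 262 CPM in Maltreated 3 and 62.0 of the 99.1 CPM in Control 4. Those are the libraries that stood apart in leukocyte genes, and elsewhere VIM stood at 1.80 to 19.3 CPM. Of the 8 markers, 3 were tested, VIM among them. All 3 were higher in the Maltreated group (median 1.54 on the log2 scale), and 0 passed. MYH11, a gene of smooth muscle, stood at 16.5, 6.97 and 13.4 CPM in Maltreated 1 to 3 and at 1.11 to 7.63 CPM in Control. ACTA2, also a gene of smooth muscle, went the other way and was not tested by edgeR. It stood at 26.6 CPM in Control 4 and 0.212 to 1.44 CPM in the other Control libraries. In Maltreated 1 it stood at 1.53 CPM, and in Maltreated 2 and 3 at 0. The part of any of these cells in the levels of PDCD1LG2 and CD274 was not tested.

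**Figure D3:**
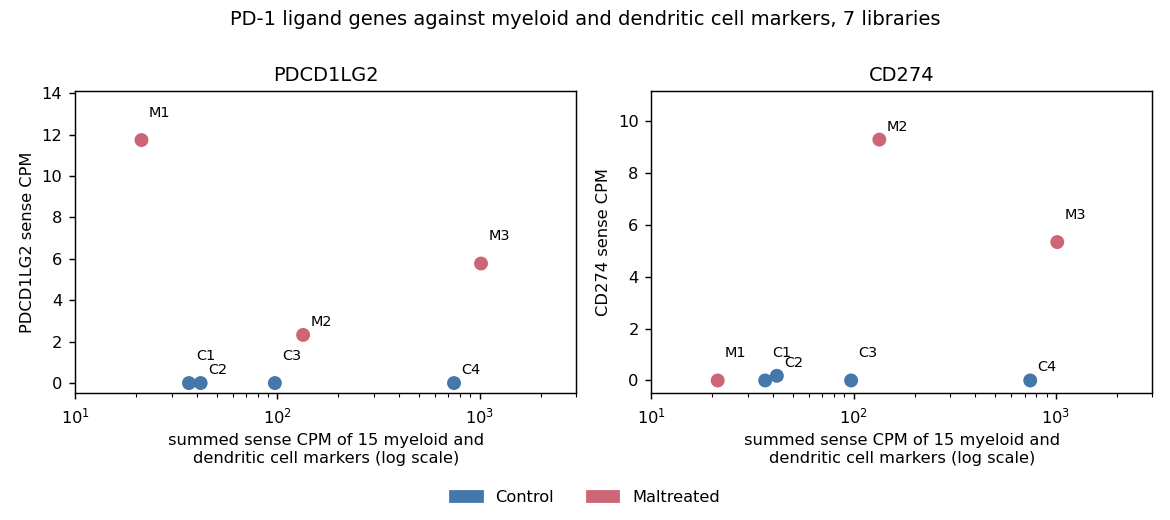
Sense CPM of PDCD1LG2 (left) and CD274 (right) against the summed sense CPM of 15 markers of myeloid and dendritic cells (log scale), 1 point per library, Control (C1 to C4) in blue and Maltreated (M1 to M3) in red. Maltreated 1 has the most PDCD1LG2 at the lowest marker sum of 21.3 CPM, and Control 4 has neither ligand at 746 CPM.

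The receptor side of the pathway was nearly absent. PDCD1, which encodes PD-1, had 13 counts in Control 4 (2.40 CPM), 2 in each of Maltreated 2 and 3, and 0 in the other 4 libraries. RGMB, a coreceptor of bone morphogenetic protein signalling that also binds PD-L2, had 21 counts in Maltreated 1, 6 in Maltreated 3, 2 in Control 2 and 0 elsewhere. CD80, a B7 ligand that pairs with PD-L1 on the same membrane, had 10, 14 and 44 counts in Control 1, Control 2 and Maltreated 1 and 0 in the other 4. The phosphatases that PD-1 recruits were present. PTPN11 (SHP-2), which acts in many cell types, averaged 88.9 ± 47.8 CPM over the Control libraries (SD, n = 4) and 84.04 ± 16.1 CPM over the Maltreated ones (SD, n = 3). PTPN6 (SHP-1), a phosphatase mainly of blood cells, had 18.5 CPM in Control 4 and 24.4 in Maltreated 3 and at most 2.49 in the other 5 libraries. Of these 5 genes 2 could be tested by edgeR and 0 passed.

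The other B7 ligands were lowly and unevenly found, and 7 of 8 were in the files under the symbol used. CD276 (B7-H3) stood at 10.2 CPM in Control 3, 17.8 in Control 4 and 7.24 in Maltreated 3, with at most 6 counts in any of the other 4. CD86, a costimulatory ligand of antigen-presenting cells, had 12.3 CPM in Maltreated 3 and at most 0.185 elsewhere. ICOSLG, the ligand of ICOS, had 13.5 CPM in Control 4 and at most 0.776 elsewhere. NCR3LG1 (B7-H6), a ligand of natural killer cells, had 1.90, 1.33 and 0.603 CPM in Maltreated 1 to 3 against 0 to 0.540 in Control. NCR3LG1 was thus the other ligand of this list with all Maltreated libraries above all Control libraries, at 57, 8 and 7 counts against 0 to 5. Of the 7 genes only CD276 was tested by edgeR, and it did not pass. Across the tested genes, 2.1% had Maltreated libraries all above Control and 1.49% all below.

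Of the receptors of the CD28 family and other B7-related receptors, ICOS, TMIGD2 and TNFRSF14 had their highest levels in Control 4. ICOS stood there at 12.9 CPM, TMIGD2 at 11.1 and TNFRSF14, a receptor of the TNF receptor superfamily, at 7.58. TNFRSF14 also had 5.86 CPM in Maltreated 3, and no other value of these 3 genes exceeded 0.689 CPM. CTLA4 had 8 counts in Maltreated 1, 7 in Maltreated 3 and 1 in each of Control 1 and Control 4, CD28 had 1 to 5 counts in 3 libraries, and BTLA had none. None of the 7 receptor genes could be tested.

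**Figure D4:**
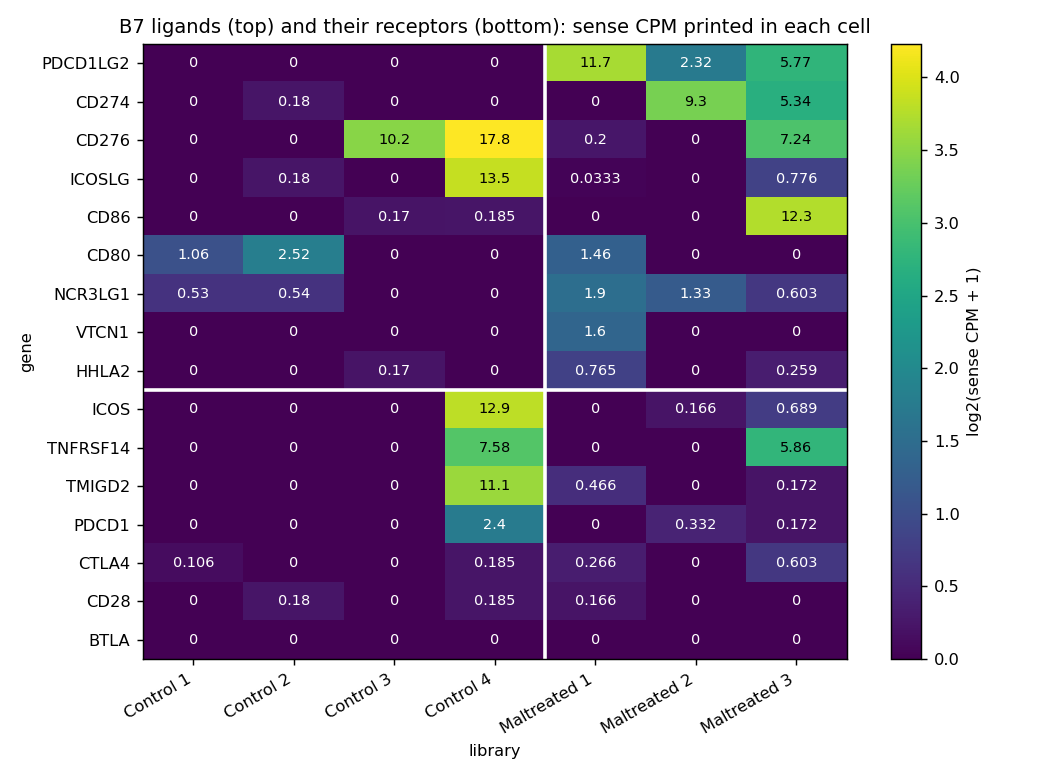
Sense CPM of the PD-1 ligands and other B7 ligands (above the white line) and of receptors (below it) in each of the 7 libraries; the CPM is printed in each cell and the colour shows log2(CPM + 1). ICOS, TMIGD2 and TNFRSF14 are highest in Control 4, while PDCD1LG2 has values in all 3 Maltreated libraries and in no Control library.

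Genes that carry the signals known to induce the ligands were present at moderate levels. Of 16 genes of interferon and interleukin-4 signalling, 10 were tested, 4 higher and 6 lower in Maltreated sperm, and 0 passed. Their median log2 fold change was -0.26, beside -0.02 over all tested genes, and its sign was not stable, with 0.54 without Control 4, -1.06 without Maltreated 3, 0.39 without both and 1.09 with age as a covariate. STAT3, a transcription factor of cytokine signalling, averaged 135 ± 28.1 CPM over the Control libraries (SD, n = 4) and 124 ± 6.29 CPM over the Maltreated ones (SD, n = 3). IL4R, a chain of the interleukin-4 receptor, stood at 128 CPM in Maltreated 1 and 12.2 to 72.6 CPM elsewhere. STAT6, which acts downstream of IL4R, had 0 in Maltreated 2, 25.0 in Maltreated 1 and 53.9 in Maltreated 3, against 4.24 to 27.7 CPM in Control. The kinase gene JAK1 stood highest in Maltreated 3 at 34.8 CPM and Control 4 at 31.999 CPM. IFNG, the gene of interferon gamma itself, had no count, and IL4 had 14 counts in Maltreated 1 and 8 in Maltreated 3 only.

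Among 9 genes known to regulate PD-L1 as a transcript or a protein, 7 were tested, 6 higher and 1 lower in Maltreated sperm, and 0 passed. Their median log2 fold change was 0.95, beside -0.02 over all tested genes, and 0.46 to 1.02 with each library left out in turn. It was 0.92 without Control 4 and Maltreated 3. Of all tested genes, 48.7% were higher in Maltreated sperm. HIF1A, which switches on genes when oxygen is low, and RELA, a subunit of NF-kappa-B, were the members whose groups did not overlap, a pattern that 2.1% of all tested genes had in this direction. HIF1A averaged 7.77 ± 4.84 CPM over the Control libraries (SD, n = 4) and 45.4 ± 38.1 CPM over the Maltreated ones (SD, n = 3), highest in Maltreated 3 with 88.0. RELA averaged 3.54 ± 1.495 CPM in Control and 13.98 ± 8.75 CPM in Maltreated libraries, highest in Maltreated 2 with 23.4. CUL3 and SPOP, parts of a ubiquitin ligase, had overlapping groups. CUL3 averaged 58.5 ± 34.8 CPM in Control and 67.6 ± 21.4 CPM in Maltreated libraries, and SPOP 7.53 ± 5.22 and 17.0 ± 11.2 CPM. NFKB1, another NF-kappa-B subunit, differed little, at 21.4 ± 10.03 against 23.2 ± 7.24 CPM. CMTM6, which protects PD-L1 from degradation, stood at 8.79 CPM in Maltreated 3 and at most 2.70 elsewhere.

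The ligand genes sit in a stretch of chromosome 9 with 10 other genes within 500 kb. PLGRKT, a plasminogen receptor gene 14191 bases before CD274, had 4 counts in Maltreated 1 and none elsewhere. KIAA1432, which begins 52044 bases after PDCD1LG2 on the same strand, had counts in every library, averaging 17.1 ± 2.88 CPM over the Control libraries (SD, n = 4) and 14.4 ± 7.61 CPM over the Maltreated ones (SD, n = 3). Its lowest level, 5.65 CPM, was in Maltreated 2. ERMP1, a metallopeptidase gene of the endoplasmic reticulum, was the most abundant gene of the stretch in every library, averaging 199 ± 29.6 CPM in Control and 174 ± 48.9 CPM in Maltreated libraries. Of the nearest neighbours, then, PLGRKT was almost without counts and KIAA1432 had counts in both groups.

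Farther away, JAK2, the kinase of the interferon gamma receptor, averaged 5.64 ± 3.72 CPM in Control and 10.9 ± 3.17 CPM in Maltreated libraries, with the lowest Maltreated library, 8.64 CPM, above the highest Control library, 8.37. Groups apart in this direction were found in 2.1% of all tested genes, and the adjusted p of JAK2 in edgeR was 0.999. KIAA2026 had 85.02 CPM in Maltreated 2 and 2.20 to 17.02 CPM in the other libraries. RANBP6, a gene of the importin family, had 16.6 CPM in Maltreated 2 and 0 to 2.50 CPM elsewhere. The peptide hormone genes INSL6, INSL4 and RLN1 had at most 4.25 CPM, and MLANA, a melanocyte antigen gene, at most 0.345 CPM of sense counts. Of the 10 neighbours 5 were tested, and 0 passed in edgeR's quasi-likelihood test.

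**Figure D5:**
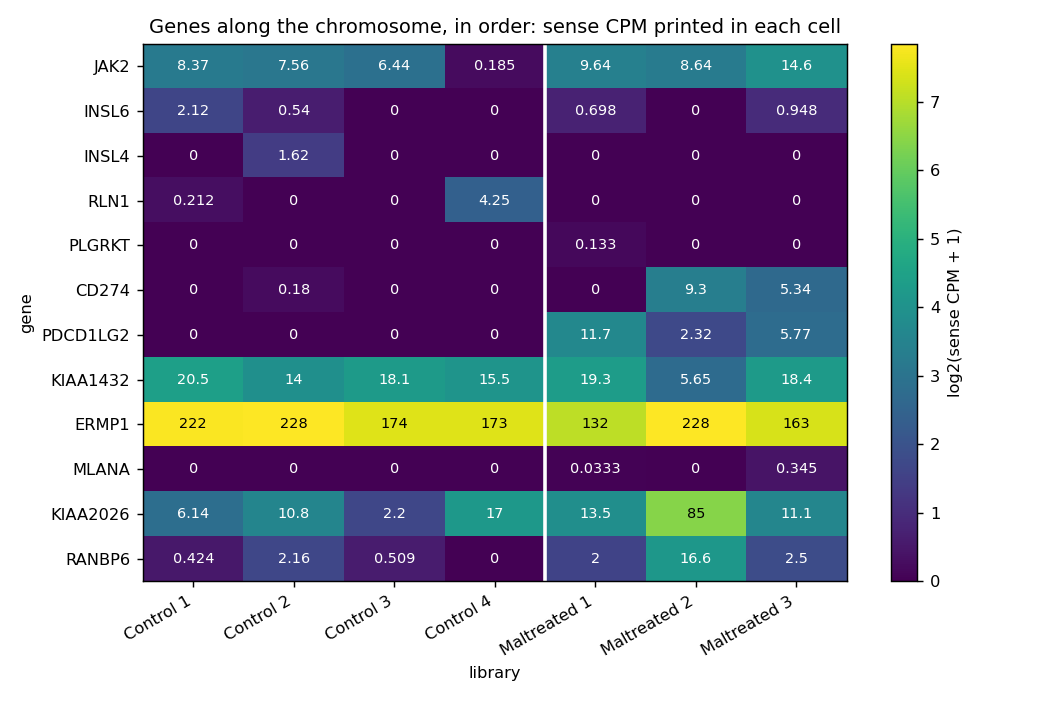
Sense CPM of the PD-1 ligand genes and of the 10 genes within 500 kb, in their order along the chromosome, in each of the 7 libraries; the CPM is printed in each cell and the colour shows log2(CPM + 1). CD274 and PDCD1LG2 lie between PLGRKT, which has 0.133 CPM in Maltreated 1 only, and KIAA1432, which has 5.65 to 20.5 CPM in all 7 libraries.

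Likeness of pattern was measured as Pearson's correlation of log2(CPM + 1) with each of the 10719 tested genes over the 7 libraries. All points share these libraries, and the values are given as a description. The genes named are those with the highest correlations, and PDCD1LG2 enters with the sense counts that chose it. PDCD1LG2 was most like C20orf26 (r = 0.96), KCNG1 (r = 0.95), SLC15A4, CTSF and SRA1 (each r = 0.93), and 9 genes reached 0.9. C20orf26 stood at 54.9 to 69.2 CPM in Control and 84.5 to 119 CPM in Maltreated libraries. CTSF, a cathepsin gene, stood at 2.37 to 5.76 CPM in Control and 6.97 to 21.7 CPM in Maltreated libraries. CD274 was most like AFF3 (r = 0.95), PIK3R5 (r = 0.94), TNS3, MPZL1 and SEC11C (each r = 0.93), and 23 genes reached 0.9. PIK3R5, a regulatory subunit of a phosphoinositide kinase of blood cells, had 21.8 CPM in Maltreated 2, 9.48 in Maltreated 3 and at most 2.71 in the other 5 libraries. Between the ligands r was 0.43. This is a single pair, whereas the genes above are the highest among all tested genes, so the values are not compared.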

How the data were processed

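Total RNA of sperm was analysed from 7 libraries, 4 Control and 3 Maltreated, grouped by the labels. STAR, featureCounts and bedtools were used, per the submitters' processing notes, with no version or role given. The deposited files hold raw counts of reads on each exon and strand and the fraction of each exon covered. A deposited table sums both per gene, and its counts equalled the exon sums for all 18282 genes used (RTN3 and ZC3HAV1, listed on both strands, were left out). Repeated exon entries (43085 of 233690) were kept as deposited; PDCD1LG2 and CD274 have none. Library totals are sums of exon counts, 5316383 to 30715268 in sense and 583353 to 2013313 in antisense.

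The quasi-likelihood test of edgeR 4.0.16 was run under R 4.3.3 (counts as deposited, TMM factors, filterByExpr with a minimum count of 10 and a minimum total of 15, quasi-likelihood F test, Benjamini-Hochberg over all genes tested, threshold 0.05, 5 residual degrees of freedom), separately for sense and antisense. The SE of a log2 fold change is its size over the square root of F. CPM use TMM-scaled totals of the same strand. Genes that failed the filter were compared by exact permutation in SciPy 1.17.1. Of these steps only the edgeR test was run on simulated counts. Their spread between libraries was set below the fitted spread of these data, and changes were set only in well-counted genes. The simulation therefore gives no measure of the test for sparse genes or antisense counts. Where a group was at 0, the fold was taken against 3 counts over that group and has no interval. Other intervals are exact at 95%.

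The members and gene lists were chosen with earlier results of these data known. Up to 5 genes per pathway list were named, those with the highest mean CPM, with all neighbours within 500 kb and the 5 genes most like each member. JAK2, IFNG, IL4, RELA, CMTM6, CD28 and BTLA were named after their values were seen. So were the markers CD68, CD83, CD1C, CLEC10A, ITGAM, CD14, LCK, CD79A, INSL3, VIM, MYH11 and ACTA2. VSIR matched no symbol in the files. Values of some other genes of the lists are not reported here. Alternatives were DESeq2 1.42.0 (size factors and Wald test), total counts, other filters, age, a replicate block, other exon counting, both strands and leaving libraries out. Sequences of the genes were not used here.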

Additional observations from a re-analysis of the deposited data

Results flagged for a closer look

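In the Control group of 4, values were compared with Dixon's 95% criterion for 1 library far from the other 3. Its rate of about 1 of 20 groups holds for normally distributed values. Sparse counts do not keep to that rate, since a library with counts against 0 in the others always meets the criterion. Of 41 quantities examined, 17 met it, 12 of them with Control 4 highest. CD274 sense met it with 0.180 CPM in Control 2, which is 1 count against 0 in the others. INSL4 (1.62 CPM) and RGMB (0.360 CPM) met it in Control 2 as well, each against 0 in the others, and so did the summed epithelial and accessory gland markers (294 CPM against at most 32.4).

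Control 4 stood far above the other Control libraries in the B7 ligand and B7-related receptor genes ICOSLG (13.5 CPM), ICOS (12.9), TMIGD2 (11.1), TNFRSF14 (7.58) and PDCD1 (2.40). The same held for the signalling genes JAK1 (31.999 CPM), STAT6 (27.7) and PTPN6 (18.5) and for the neighbour RLN1 (4.25). Marker sums that met the criterion in Control 4 were those of myeloid and dendritic cells (746 CPM), lymphocytes (118 CPM) and leukocytes in general (79.3 CPM). The summed sperm markers were lowest in Control 4, at 46296 CPM against at least 59560 in the others. Both PD-1 ligands had no count in that library.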

How the results depend on the processing

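The bound of the pooled PDCD1LG2 fold stayed between 40.0 and 88.2 with each library left out. It was 77.9 to 81.2 under the other scalings and with unique exons. With antisense counts added the ratio was 10.1, by construction, since Control libraries hold antisense counts. CD274 stayed higher in Maltreated sperm in all 15 alternatives run, of which those by exact permutation could not reach 0.05; the difference was 2.61 to 7.29 CPM with each library left out and 10.9 CPM with the largest exon count. The log2 fold change of antisense PDCD1LG2 was negative in the 9 alternatives that could fit it (-2.15 with age as a covariate, and -1.20 to -0.36 without Control 3, Maltreated 2 or Maltreated 3, the 3 omissions that left it in the test; adjusted p at least 0.981), while its CPM difference ran from -8.66 to 2.59 with a library left out, the positive value without Control 2, and was -13.3 with the largest exon count. The median log2 fold change of the interferon and interleukin-4 genes was also positive with a replicate block (0.12) and with the largest exon count (0.32). CD274 had no antisense count under any exon counting.

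The number of genes passing in sense counts was 0 with each library left out, 3 by the DESeq2 Wald test (CA11, CHIA and PPP2R2C) and 1 (CD63) with age as a covariate. In antisense counts it was 0 with each library left out, 24 without a filter and 13 by the DESeq2 Wald test; the cause was not tested. With a replicate block on the shared numbers 1 to 3 it was 0 in both, and neither antisense PDCD1LG2 nor CD274 entered that fit. Same-numbered libraries did not deviate together (correlations 0.07, 0.01 and -0.02). No pairing by number was thus seen, but correlations over all genes in so few libraries cannot exclude one. Leaving out Control 4 and Maltreated 3 was chosen after seeing the data. Depth limits the Control side most, since a count of 0 allows up to 0.555 CPM in a library.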

Other observations

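Other genes shared the pattern of PDCD1LG2, absent from all Control libraries yet counted in each Maltreated library. After PDCD1LG2 with 434 Maltreated counts came SLA, an adaptor of T cell receptor signalling, with 270, STX10, a syntaxin of the Golgi, with 177, CD79A, a chain of the B cell receptor, with 106, COX16, a factor of mitochondrial complex assembly, with 82, and PARP9, a gene of the interferon response, with 71. The reverse, counts in every Control library and none in any Maltreated library, was found in 3 genes against 87. Sense depth summed to 26694954 counts over the Control and 47566579 over the Maltreated libraries, and the part of depth in these numbers was not tested. These genes were chosen by their counts, and no test is given for them.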
